A study of Homo sapiens with 12 samples.

Results

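The subject here is the mRNAs of the ZNF genes and the sites on them where dSpCas9 was cross-linked. A ZNF gene was any protein-coding gene of GENCODE version 44 whose symbol is ZNF followed by digits and at most 1 letter, and a peak belonged to it when it overlapped an exon on the same strand. By this rule 180 of the 18128 deposited peaks lay on ZNF mRNAs, and 62 of the 508 annotated ZNF genes had at least 1 peak. Altogether 17693 peaks lay on exons of protein-coding genes.

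The data were obtained by enhanced cross-linking and immunoprecipitation (eCLIP), in which UV light links a protein to the RNA it touches and the RNA recovered with the protein is sequenced. HEK 293T cells, a human embryonic kidney line with the SV40 large T antigen, were transfected with a plasmid for V5-tagged or 3xFLAG-tagged dSpCas9, a catalytically dead Cas9 found mainly in the cytoplasm, and no guide RNA was given. Each antibody had 2 immunoprecipitation (IP) libraries, 2 libraries of size-matched input (SMI, RNA cut from the same part of the membrane with no IP) and 2 libraries in which the antibody was used on empty vector cells (EV), which makes 12 libraries in 6 groups of 2 replicates. All cells received UV light at 400 mJ/cm2, and RNA was taken from the membrane above 115 kDa. The protein came from a transfected plasmid in 1 cell line, so its level was not that of any natural RNA-binding protein. Read totals of the libraries were not used here, and the depth behind a peak is unknown.

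Each of the 4 deposited lists (V5 IP over SMI, V5 IP over EV, FLAG IP over SMI and FLAG IP over EV) gives 1 log2 enrichment per peak, the log2 of the ratio of IP to control reads taken as a geometric mean of both replicates. No list holds a peak below 3.00. The spread between replicates is therefore not visible, no test between conditions was possible, and intervals given for shares are 95% Wilson intervals that cover counting error only.

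ZNF genes form the largest family of human transcription factors. Their C2H2 zinc fingers are short modules in which a pair of cysteines and a pair of histidines hold a zinc ion, and many fingers stand in a row, joined by short linkers of similar sequence, so that the array is commonly encoded by a single long last exon made of repeated units. Many members also carry a KRAB domain, through which they bring the corepressor TRIM28 (KAP1) to DNA and silence transposable elements, and a large part of the family lies in clusters of related genes on chromosome 19 that arose by repeated duplication.

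The sequences below carry the main sites. The first set shows bases from the middle of stretches bound in all 4 lists, at most 30 each, read from hg38 on the strand of the mRNA, 5′ to 3′. Capitals in the ZNF672 sequence mark the only GU followed by 5 paired bases that the structure model described further down found in these stretches.
ZNF496 3′ UTR, chr1:247299332-247299361, minus strand: tgtggaagcgtcacccagtctctgccttca
ZNF445 3′ UTR, chr3:44443029-44443058, minus strand: ctctcttggttcctatgtcaggtgatgttt
ZNF496 finger array, chr1:247300699-247300728, minus strand: aaactgagcttccagtgctgtgagtgtggg
ZNF672 finger array, chr1:248847955-248847984, plus strand: caagtgcccggaGTGCGGCaagggcttcct

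The second set shows linkers that lay wholly inside a peak, from the last histidine codon of a finger to the first cysteine codon of the next, to let the repeated unit of the array be seen in genes of 4 chromosomes. Capitals mark the 7 codons of the linker.
ZNF672, chr1:248847935-248847961, plus strand: cacTCGGGGGAGAAACCCTTCAAGtgc
ZNF74, chr22:20406429-20406455, plus strand: cacAGCGGCGAGAAGCCCTTCAAGtgc
ZNF213, chr16:3140982-3141008, plus strand: cacACGGGCGAGAAGCCACACAAGtgc
ZNF629, chr16:30783116-30783142, minus strand: cacACGGGCGAGCGGCCCTACAAGtgc
ZNF227, chr19:44236558-44236584, plus strand: cacACGGGAGAGAAACCCCATATAtgt

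ZNF mRNAs carried peaks less often than protein-coding mRNAs in general. In V5 IP over SMI, 41 ZNF genes had a peak (8.07%, interval 6.0 to 10.8), against 13.6% of all 20046 protein-coding genes. In FLAG IP over SMI the count was 43 (8.46%, interval 6.34 to 11.2), against 13.2%. Over the empty vector IP, 16 ZNF genes had a V5 peak (3.15% against 6.78%) and 14 had a FLAG peak (2.76% against 4.96%). Taking the lists together, 62 ZNF genes were bound in 1 or more lists (12.2%, interval 9.64 to 15.3, against 18.1%), 26 had one in both SMI lists (5.12% against 9.26%), and 5 had one in all 4 lists (0.984% against 2.79%). C2H2 genes of other families (ZBTB, ZSCAN, KLF, PRDM and the like with at least 3 fingers) were bound in 1 or more lists in 29 of 138 cases (21%, interval 15 to 28.6), so the lower share was not seen over the whole C2H2 class. RNA levels of these genes are not in the lists, and the part of mRNA abundance in these shares was not tested.

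The peaks were unevenly spread over the 62 genes. A single peak was all that 26 of them had, and the 5 genes with most peaks, ZNF395, ZNF74 and ZNF740 with 13 each and ZNF445 and ZNF496 with 12 each, held 63 of the 180. The list of a gene's peaks is not a count of separate sites: 37 of the 180 peaks directly abutted another peak of the same list and gene. Of the 62 genes, 28 appeared in exactly 1 list, 21 in 2, 8 in 3 and 5 in 4.

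The log2 enrichment of the peaks that were present was close to that of other mRNAs, while their p-values were weaker over SMI. The median log2 enrichment of ZNF peaks was 3.55 in V5 IP over SMI (all protein-coding peaks 3.60), 3.34 in V5 IP over EV (3.62), 3.74 in FLAG IP over SMI (3.61) and 3.69 in FLAG IP over EV (3.59). The 95% interval of the ZNF median held the value of all protein-coding peaks in each list (3.40 to 3.77, 3.24 to 3.84, 3.56 to 3.88 and 3.26 to 4.01). These values are cut off at 3.00 by the authors' filter. The p-values were filtered too. On protein-coding exons the lowest −log10 p-value was 3.01 in V5 IP over SMI and 3.05 in FLAG IP over SMI. The median −log10 p-value of ZNF peaks was 6.23 in V5 IP over SMI (interval 5.09 to 7.40, all protein-coding peaks 8.81) and 6.79 in FLAG IP over SMI (5.21 to 8.16, against 9.87). Over the empty vector IP it was 4.88 with V5 (3.86 to 9.03, against 6.13) and 7.39 with FLAG (5.39 to 9.63, against 8.78), where the intervals held the value of all protein-coding peaks. Apart from ZNF496 and ZNF672, no ZNF gene had a peak above 5.26 in any list.

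**Figure D1:**
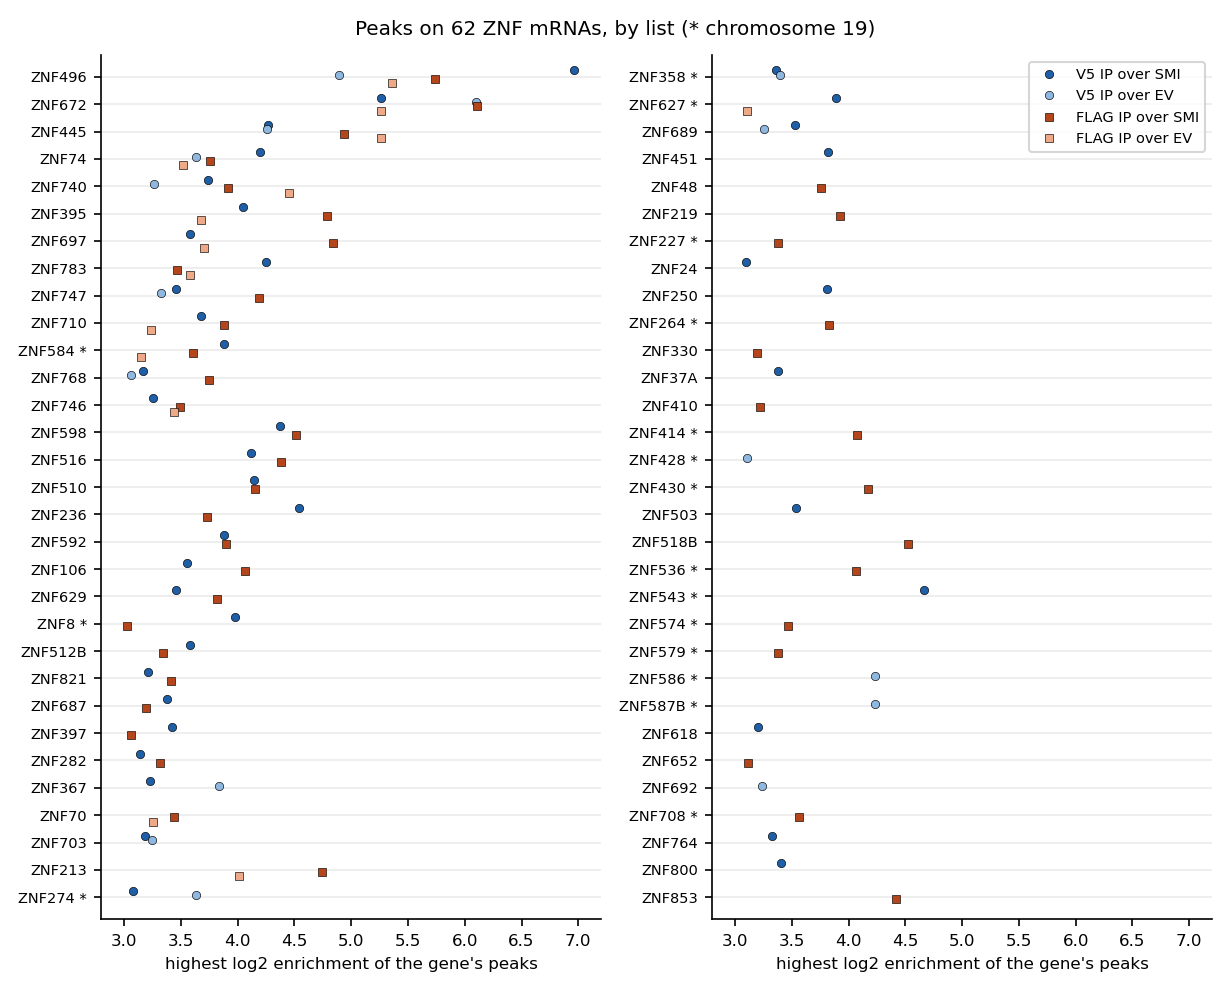
Highest log2 enrichment of each of the 62 ZNF genes in each list (x axis, log2 of IP over control reads), with genes ordered by the number of lists they appear in; circles are V5 and squares FLAG, dark over size-matched input (SMI) and light over the empty vector IP (EV), and an asterisk marks a gene on chromosome 19. ZNF496 reaches 6.96 and ZNF672 6.10, ZNF445 follows at 5.26, and the genes with an asterisk sit mostly among those with 1 symbol.

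Stretches bound in all 4 lists were found on 4 ZNF genes. The lists were intersected after the study's outline, the lists of each antibody first. A peak of a list had to be covered to at least 50% on its strand by one of the next, and the shared part was kept. Further settings of that outline are not given in the sources used here, and the stretches are not the study's own reproducible set, which is smaller. This left 749 stretches on all RNAs and 8 on ZNF mRNAs. They lay on ZNF496, ZNF672, ZNF445 and ZNF74, which is 0.787% of the ZNF genes against 2.07% of all protein-coding genes.

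ZNF496 (chromosome 1), whose protein has a KRAB and a SCAN domain besides its fingers, held the highest ZNF peak of the data. That peak lay in the 3′ UTR on the last of 10 exons, and its bound part at chr1:247299290-247299402 had a log2 enrichment of 6.96 in V5 IP over SMI, 4.90 in V5 IP over EV, 5.74 in FLAG IP over SMI and 5.36 in FLAG IP over EV. It was the highest ZNF peak of V5 IP over SMI and of FLAG IP over EV. A further peak abutted it on its 5′ side on the mRNA in 3 lists, at 3.92 in V5 IP over SMI, 5.44 in FLAG IP over SMI and 3.79 in FLAG IP over EV. On the same exon, a second bound stretch at chr1:247300673-247300753 lay inside the finger array, at 4.22, 4.16, 5.31 and 3.01 in the same order of lists. The 2 stretches were on either side of the stop codon, and the FLAG list over SMI added a lower peak in the coding sequence before the array (3.31).

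ZNF672 (chromosome 1) had all of its 7 peaks inside its finger array of 13 fingers, in 1 place. The bound stretches at chr1:248847902-248847937 and chr1:248847942-248848014 are 4 nt apart on exon 4, the last exon. The first had a log2 enrichment of 5.22 in V5 IP over SMI, 6.10 in V5 IP over EV, 5.65 in FLAG IP over SMI and 4.88 in FLAG IP over EV. The second had 5.26, 6.10, 6.10 and 5.26, where the V5 value over EV belongs to 1 peak that spans both. With V5 the value was thus higher over EV than over SMI, and with FLAG it was lower. The ZNF672 linker printed above bridges the 2 stretches.

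ZNF445 (chromosome 3) encodes a KRAB zinc finger protein known for keeping imprinted methylation, and it has a long 3′ UTR of 14870 nt. All of its 12 peaks fell on 1 place in that 3′ UTR with midpoints 3520 to 3593 nt after the stop codon. The 3 bound stretches, chr3:44442982-44443008, chr3:44443009-44443027 and chr3:44443029-44443058, adjoin one another. The first had 4.13 in V5 IP over SMI, 3.91 in V5 IP over EV, 4.70 in FLAG IP over SMI and 5.26 in FLAG IP over EV. The second had 4.09, 4.25, 4.93 and 5.10, and the third 4.27, 3.62, 4.49 and 3.79. FLAG values were above the V5 values of the same control at each of the 3.

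ZNF74 (chromosome 22), a KRAB zinc finger gene, had peaks in its 5′ UTR and in its finger array, and 1 short peak of 10 nt in its 3′ UTR at 3.56 in FLAG IP over SMI. The stretch bound in all 4 lists, chr22:20406408-20406499, lay over the linker printed above in the finger array on the last of 5 exons, with 4.20 in V5 IP over SMI, 3.63 in V5 IP over EV, 3.60 in FLAG IP over SMI and 3.52 in FLAG IP over EV. Its 5′ UTR on exon 1 carried a peak in 3 lists, at 4.03 in V5 IP over SMI, 3.34 in V5 IP over EV and 3.76 in FLAG IP over SMI, with none in FLAG IP over EV. Upstream in the array, peaks at 3.19 in V5 IP over EV, 3.09 in FLAG IP over SMI and 3.26 in FLAG IP over EV lay near one another, but the V5 peak ended on the base where the FLAG peak over SMI began.

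ZNF740 (chromosome 12) was in all lists without a site common to all 4. It had 13 peaks, all in its 3′ UTR, with a highest value of 3.74 in V5 IP over SMI, 3.26 in V5 IP over EV, 3.92 in FLAG IP over SMI and 4.45 in FLAG IP over EV. No stretch was left in the intersection, and its only peak in V5 IP over EV overlapped no peak of V5 IP over SMI. Some places were shared by fewer lists. A peak with the same borders had 3.92 in FLAG IP over SMI and 3.73 in FLAG IP over EV. The peak in V5 IP over EV overlapped peaks of FLAG IP over EV. The midpoints of 12 of the 13 peaks fell between 244 and 1048 nt after the stop codon, and that of 1 peak in V5 IP over SMI lay at 2390 nt.

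**Figure D2:**
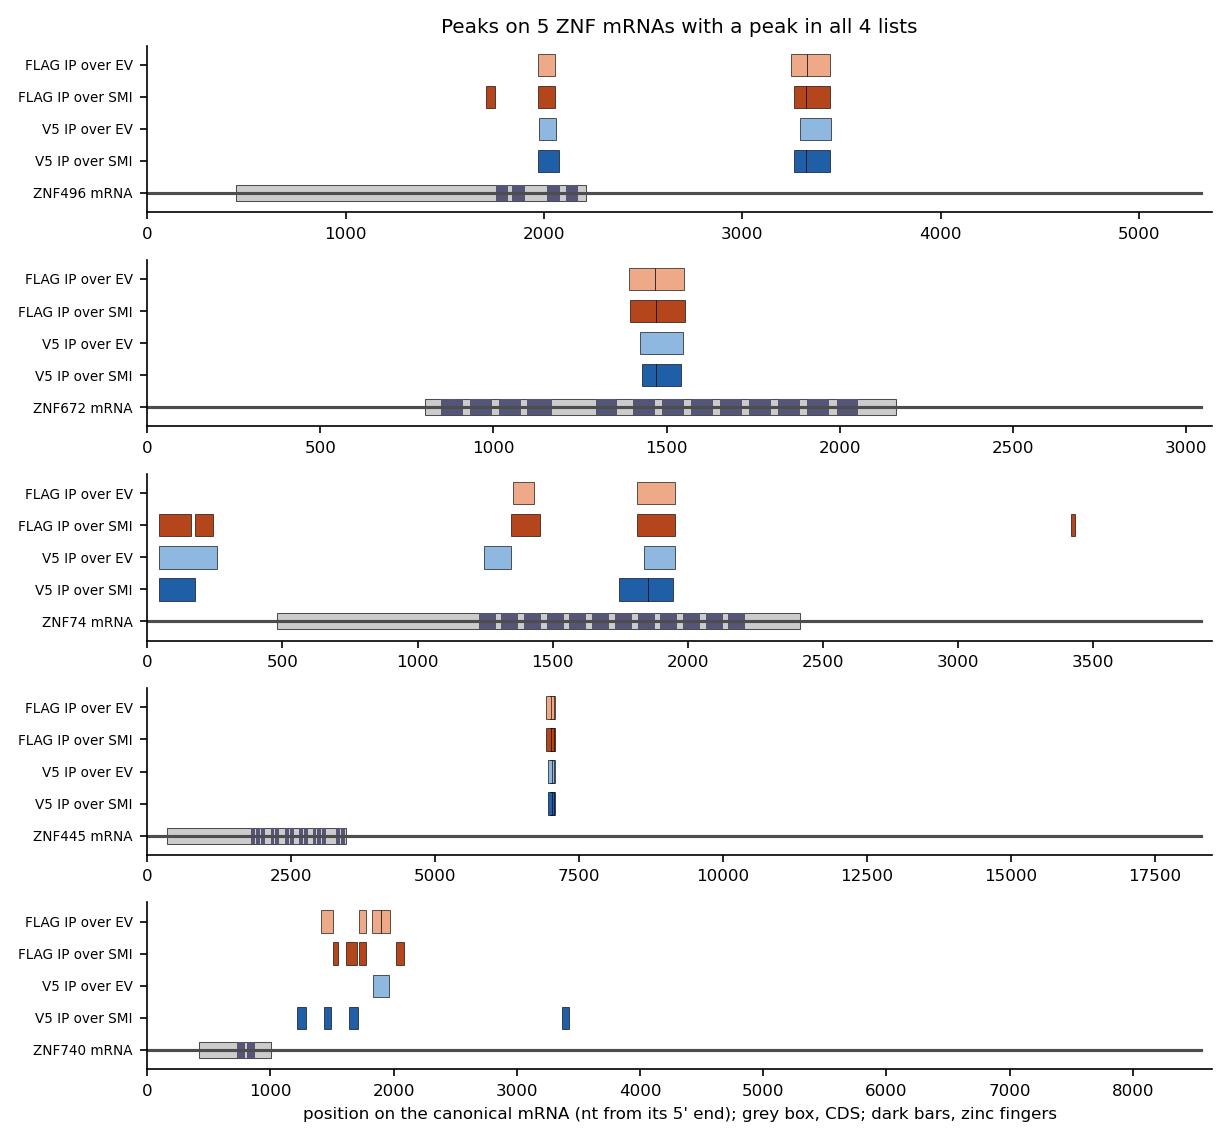
Peaks of the 4 lists on the mRNAs of the 5 ZNF genes found in every list (x axis, position in nt from the 5′ end of the canonical mRNA; each row 1 list; grey box, coding sequence; dark bars, zinc fingers; thin line, UTRs). ZNF496, ZNF672 and ZNF445 show the peaks of all lists stacked at the same places. ZNF74 has 1 such place in the array and a 5′ UTR site in 3 lists, and ZNF740 has 3′ UTR peaks with no place common to all lists.

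Among the genes outside the intersection, ZNF598 and ZNF395 had the highest mean of both SMI lists. ZNF598 (chromosome 16), the E3 ubiquitin ligase that marks collided ribosomes, had 4.38 in V5 IP over SMI and 4.52 in FLAG IP over SMI, all in its 3′ UTR, and no peak over the empty vector IP. Between 17.5% and 65.5% of the 30-nt words in its peaks also occur elsewhere in the genome, and the placement of reads there is uncertain. ZNF395 (chromosome 8) had peaks in 3 lists, with highest values of 4.05 in V5 IP over SMI, 4.79 in FLAG IP over SMI and 3.68 in FLAG IP over EV, and none in V5 IP over EV. Its 13 peaks formed 8 separate places in the merged lists, the most of any ZNF gene, most of them along the 3′ UTR.

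The other genes found in exactly 3 lists are described next, chosen after their values were seen because they complete that group. ZNF697 (chromosome 1) had a 3′ UTR peak with a shared border in 3 lists, at 3.58 in V5 IP over SMI, 4.84 in FLAG IP over SMI and 3.70 in FLAG IP over EV. ZNF783 (chromosome 7) likewise had 1 place in its 3′ UTR, at 4.25 in V5 IP over SMI, 3.46 in FLAG IP over SMI and 3.58 in FLAG IP over EV. In ZNF710 (chromosome 15) the place lay in the coding sequence before the array, at 3.68, 3.88 and 3.24 in the same lists. ZNF746 had it in the array, at 3.25, 3.49 and 3.44. In these genes, as in ZNF395 and ZNF584, V5 IP over EV was the list without a peak. In ZNF747 and ZNF768 it was FLAG IP over EV, and ZNF747, with exon 1 peaks at 3.16 and 3.46 in V5 IP over SMI, 3.32 in V5 IP over EV and 4.19 in FLAG IP over SMI, overlaps an exon of another gene there.

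Both SMI lists, and no list over EV, held 13 genes, several of which encode proteins of known function. ZNF592 and ZNF687 (chromosomes 15 and 1) belong to a chromatin complex with ZMYND8. ZNF592 had peaks at 3.39 and 3.88 in V5 IP over SMI and at 3.90 and 3.65 in FLAG IP over SMI, of which those at 3.39 and 3.90 overlapped on exon 4. ZNF687 had 3.38 with V5 and 3.19 with FLAG on different exons. ZNF106, an RNA-binding protein that acts in splicing, had a 3′ UTR peak at 3.55 with V5 and 4.06 with FLAG at the same place, and ZNF516 (chromosome 18) had one at 4.12 and 4.38. ZNF510 (chromosome 9) had a peak with a shared border on exon 4 at 4.15 with V5 and 3.83 with FLAG, and 26.9% and 30.4% of the 30-nt words in them occur elsewhere. These genes were also chosen after their values were seen, for their known roles or for their shared places.

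Genes of a single list had no second measurement here. There were 15 in FLAG IP over SMI, from ZNF652 at 3.12 to ZNF518B at 4.53, and 9 in V5 IP over SMI, from ZNF24 at 3.09 to ZNF543 at 4.67. They include ZNF410, the activator of CHD4, with 3.22 in FLAG IP over SMI in its array, where an exon of another gene overlaps, and ZNF451, a SUMO ligase, with peaks at 3.82 and 3.14 in V5 IP over SMI on an exon outside the canonical transcript. The rule on symbols also took in 3 genes with a peak whose translated sequence held no finger of the searched spacing. These were ZNF703 (3.18 in V5 IP over SMI and 3.24 in V5 IP over EV) and ZNF503 (3.54 in V5 IP over SMI), of the NET family of atypical zinc finger proteins, and ZNF330 (3.19 in FLAG IP over SMI).

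Peaks were placed by the region of the canonical mRNA under their midpoint, and the coding sequence was split into the finger array (first to last finger, found by the spacing of cysteines and histidines in the translated sequence) and the rest. At least 1 finger was found in 498 of the 508 genes. In V5 IP over SMI, 15 of 65 peaks lay in the finger array (23.1%, interval 14.5 to 34.6), 14 elsewhere in the coding sequence (21.5%), 26 in the 3′ UTR (40%, interval 29.0 to 52.1) and 8 in the 5′ UTR (12.3%). In FLAG IP over SMI, 24 of 68 lay in the array (35.3%, interval 25.0 to 47.2), 12 elsewhere in the coding sequence (17.6%), 25 in the 3′ UTR (36.8%, interval 26.3 to 48.6) and 7 in the 5′ UTR (10.3%). Peaks of the same gene are not independent and abutting peaks count separately, so these intervals are too narrow. With merged peaks the array share was 23.2% with V5 and 34.9% with FLAG, and the 3′ UTR share 35.7% and 34.9%. The mRNA length of the 62 genes is 21.5% array, 18.7% other coding sequence, 54.2% 3′ UTR and 5.57% 5′ UTR. The share of the array was thus close to its share of length in the V5 list and above it in the FLAG list, and the share of the 3′ UTR was below its share of length in both. The same direction held for the 3′ UTR over all protein-coding mRNAs with a peak, where it made up 50.8% of the length and 37.9% of the V5 and 40.1% of the FLAG peaks over SMI. These lengths are summed over genes whatever their number of peaks. Long 3′ UTRs such as those of ZNF445 (14870 nt) and ZNF264 (9865 nt, with no peak in it) weigh most in the ZNF sum. A comparison of regions weighted by the peaks of each gene was not made.

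Over the empty vector IP, each antibody gave 24 pairs of a peak and a ZNF gene. The finger array held 6 of the V5 pairs and 9 of the FLAG pairs, and the 3′ UTR held 6 and 13. The coding sequence outside the array held 6 V5 pairs and 1 FLAG pair, and the 5′ UTR held 4 and 1. With these counts the intervals of the V5 and FLAG shares overlapped in each of these regions.

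**Figure D3:**
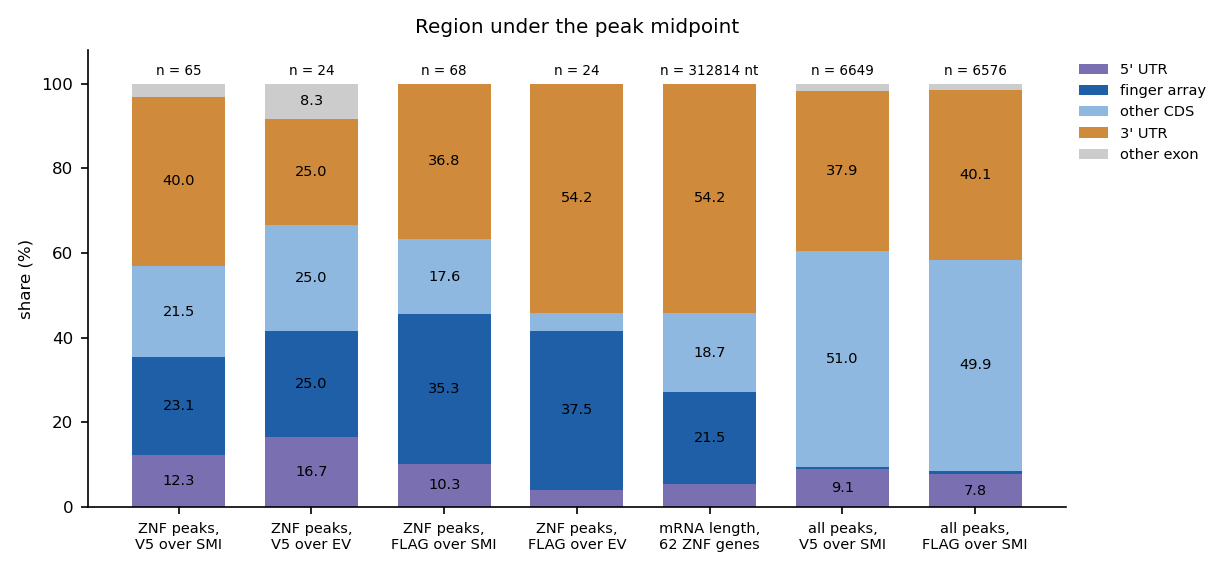
Share of peaks by the region under their midpoint (y axis, percent; colours, regions), for ZNF peaks of each list, for the mRNA length of the 62 ZNF genes with a peak, and for all peaks on protein-coding exons over SMI; n above each bar counts peak and gene pairs or nucleotides. The finger array takes 23.1% to 37.5% of ZNF peaks and 21.5% of the length, while the 3′ UTR takes 40% and 36.8% of the SMI peaks and 54.2% of the length.

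The 54 peaks in finger arrays came from 24 genes, and 45 of them lay on the last exon, where the array is usually encoded. Among these 54, 20 overlapped at least 2 fingers, 22 held a whole linker and 5 touched no finger at all. Counted by nucleotides, 61.4% of the peak length fell on fingers and 12.5% on linkers, the rest being longer spacers and peak ends outside the array. Fingers make up 41.2% and linkers 8.77% of the summed array length of these genes, a sum in which long arrays with few fingers such as that of ZNF106 weigh most. When the array of each gene was weighted by the length of its peaks, fingers made up 64.1% and linkers 15.8%, slightly more than in the peaks, and the finger share of the peaks was below that of the gene's own array in 14 of 24 genes. The peak shares count peak ends outside the array and the array shares do not, which lowers the peak side. The comparison therefore cannot decide whether peaks within a gene hold an excess of fingers or linkers. The 5 that touched none were on ZNF106, ZNF516, ZNF536, ZNF574 and ZNF579, whose arrays hold long spacers. Linkers in the shown form with 7 codons read as the canonical threonine, glycine, glutamate, lysine and proline in 5 of 12 cases inside peaks, in 131 of 320 cases over the genes with a peak and in 2127 of 4291 cases over all ZNF genes, so both kinds lay within peaks. The 5 linkers printed above include both kinds.

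Array peaks of the other genes reached lower values than those of ZNF672. ZNF213 (chromosome 16) had a peak with the same borders at 4.75 in FLAG IP over SMI and 4.01 in FLAG IP over EV and none with V5. ZNF629 (chromosome 16), with 19 fingers, had 5 array peaks at 3.46 and 3.12 in V5 IP over SMI and at 3.01, 3.50 and 3.81 in FLAG IP over SMI. ZNF768 (chromosome 16) had array peaks at 3.17 in V5 IP over SMI, 3.06 in V5 IP over EV, and 3.75 and 3.24 in FLAG IP over SMI. These 3 genes were named after their values were seen, because they had a linker inside a peak or the most array peaks after ZNF74 and ZNF672.

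In the 5′ UTR there were 20 pairs of a peak and a gene on 12 genes, and 18 lay on exon 1. Besides ZNF74, a 5′ UTR peak occurred in more than 1 list on ZNF584 and ZNF821. ZNF584 (chromosome 19) had overlapping peaks at 3.88 in V5 IP over SMI and 3.60 in FLAG IP over SMI. At another place of its exon 1, peaks at 3.02 in V5 IP over SMI and 3.15 in FLAG IP over EV overlapped, so the FLAG lists shared no place on it. ZNF821 (chromosome 16) had 3.21 in V5 IP over SMI and 3.42 in FLAG IP over SMI. These peaks were rich in G and C: the median GC content was 70.6% in V5 IP over SMI and 76.0% in FLAG IP over SMI, against 56.5% and 53.3% in ZNF 3′ UTR peaks. In the 3′ UTR, 10 of 70 peaks had their midpoint within 500 nt of the stop codon. The 70 came from 19 genes, and 12 of them lay at the ZNF445 place. The median 3′ UTR of the 62 genes with a peak was 1738.5 nt long. The share of 3′ UTR length within 500 nt of the stop codon was not computed, so no preference can be read from this count.

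Chromosome 19 holds 246 of the 508 ZNF genes, and few of these had a peak. There were 17 (6.91%, interval 4.36 to 10.8), against 45 of 262 ZNF genes on other chromosomes (17.2%, interval 13.1 to 22.2). Chromosome 19 genes outside the family had a peak in 232 of 1230 cases (18.9%) and genes outside the family on other chromosomes in 3330 of 18308 (18.2%), so the low share was not seen in the other genes of chromosome 19. The 17 genes held 23 of the 180 peaks. Of the 17, 12 had a single peak and 12 were in exactly 1 list. No ZNF gene of chromosome 19 was in all 4 lists (0 of 246), and 2, ZNF584 and ZNF8, were in both SMI lists (0.813%, against 9.16% of ZNF genes elsewhere). Both shares count genes and do not need a common place. The V5 and FLAG peaks over SMI overlapped on ZNF584 but not on ZNF8.

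The genes were grouped into clusters, runs of at least 5 ZNF genes with starts at most 500 kb apart. Chromosome 19 had 10 clusters with 232 genes, of which 14 had a peak (6.03%, interval 3.63 to 9.87), and 4 clusters with 75 genes had none. The 39 genes from ZNF175 to ZNF331 and the 26 genes from ZNF565 to ZNF573 were among those without a peak. The cluster at the end of the long arm, from ZNF264 to ZNF446, had 7 genes with a peak out of 43, namely ZNF264, ZNF543, ZNF586, ZNF587B, ZNF274, ZNF8 and ZNF584. The highest value in it was 4.67, for ZNF543 in V5 IP over SMI, a 5′ UTR peak in which 21.7% of the 30-nt words also occur elsewhere.

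In the other clusters of chromosome 19 the highest values over SMI were those of ZNF430 (4.17, FLAG), ZNF414 (4.08, FLAG), ZNF627 (3.89, V5), ZNF227 (3.38, FLAG) and ZNF579 (3.38, FLAG). ZNF430, ZNF414, ZNF227 and ZNF579 each had this 1 peak in 1 list. ZNF627 also had a peak at 3.11 in FLAG IP over EV that overlapped the V5 peak in the array. ZNF274, the gene whose protein brings SETDB1 to the 3′ ends of other ZNF genes, had a peak in the coding sequence with the same borders at 3.08 in V5 IP over SMI and 3.63 in V5 IP over EV.

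For comparison, a cluster on chromosome 16, from ZNF48 to ZNF267, had a peak on 6 of 13 genes (ZNF48, ZNF768, ZNF747, ZNF764, ZNF689 and ZNF629) with 18 peaks. On chromosome 7 the cluster from ZNF786 to ZNF862 had a peak on 3 of 10 genes (ZNF282, ZNF783 and ZNF746, whose product is known as PARIS). These 2 clusters were named after their values were seen, as those outside chromosome 19 with most bound genes. The clusters of ZNF496, ZNF445, ZNF250 and ZNF213 had a peak on 1 of 5, 1 of 7, 1 of 6 and 1 of 7 genes. Of the 11 clusters outside chromosome 19, with 81 ZNF genes in all, 5 with 33 genes had none.

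A peak was found over the empty vector IP only on 4 ZNF genes, all with V5. ZNF586 and ZNF587B shared a single peak at 4.24, since exons of these neighbours overlap on chromosome 19, and its gene cannot be told. ZNF428 (chromosome 19) had 3.11 and ZNF692 (chromosome 1) had 3.24, both in the coding sequence. Over all lists, 9 of the 180 peaks also lay on an exon of another gene, 26 held at least 1 30-nt word that occurs elsewhere in the genome, and 3 had over 50% of their words elsewhere. How the aligner placed reads with such words was not tested. Another 10 of the 180 peaks, some of them on ZNF445, were too short for a 30-nt word and were not checked.

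ZNF genes with a peak had a coding sequence of higher GC content than those without. Its median was 60.2% over the 62 genes and 42.5% over the other 446. When the 508 genes were divided into 4 bins of 127 by this GC content, the share with a peak was 4.72% in the lowest bin, 3.15% in the second, 9.45% in the next and 31.5% in the highest. Genes outside the family at the same GC content had a peak in 8.84%, 14.0%, 17.9% and 20.2% of cases, a gentler rise that began higher and ended lower. Within the highest bin, 8 of 34 ZNF genes on chromosome 19 had a peak (23.5%, interval 12.4 to 40) and 32 of 93 on other chromosomes (34.4%, interval 25.5 to 44.5). In the lowest bin the counts were 2 of 77 and 4 of 50, in the second 2 of 72 and 2 of 55, and in the next 5 of 63 and 7 of 64. Within each bin the intervals of chromosome 19 and of the other chromosomes overlapped, and the median GC content was 41.8% over the ZNF genes of chromosome 19 and 47.2% over the rest. GC content and chromosome moved together in this family, and their parts in the shares were not tested. The genes with a peak had a median of 8 fingers and the others 11, and the median mRNA length differed little (3893 and 3940.5 nt).

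**Figure D4:**
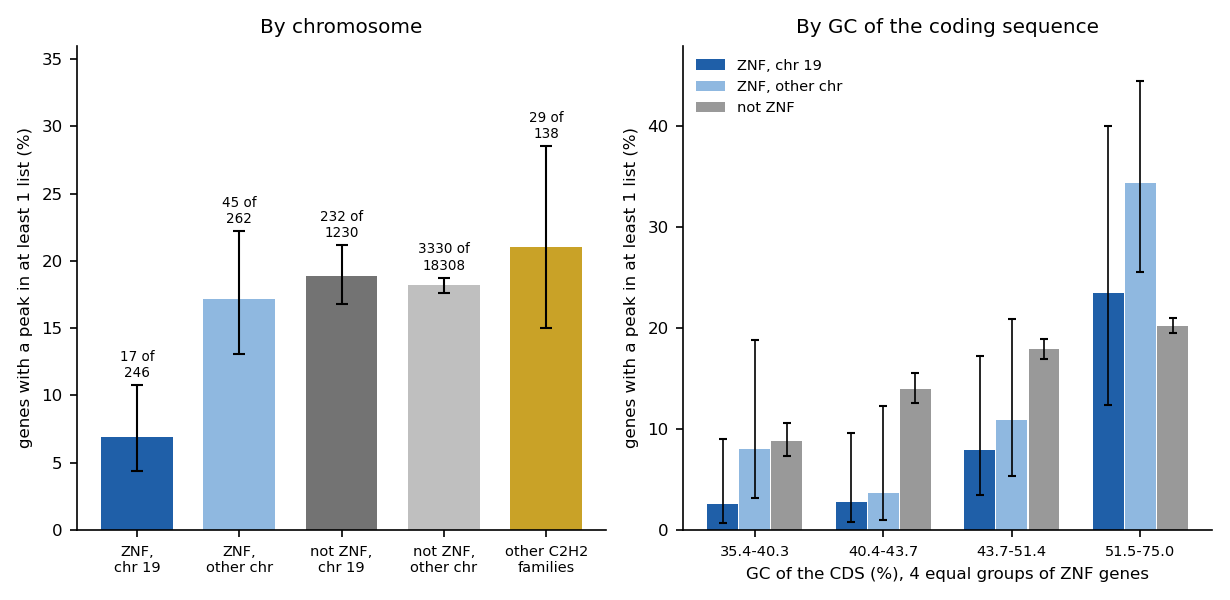
Share of genes bound in 1 or more lists (y axes, percent; error bars, 95% Wilson intervals), on the left by chromosome and family with counts above the bars and on the right by the GC content of the coding sequence in 4 bins of 127 ZNF genes. ZNF genes on chromosome 19 stand at 6.91% and the other groups between 17.2% and 21%, and in the highest GC bin both ZNF bars are at or above the bar of other genes.

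The antibodies were compared on the 26 ZNF genes with a peak in both SMI lists. The highest value of a gene had a median of 3.81 with V5 and 3.85 with FLAG, and FLAG was higher for 17 of 26 genes. Across these genes Pearson's r was 0.708 and Spearman's rho 0.545, given as a description since genes are not replicates. Without ZNF496 and ZNF672, which lie farthest from the rest, r was 0.404 over the remaining genes, so the relation rests in good part on these. ZNF697 had 3.58 with V5 and 4.84 with FLAG, and ZNF236 had 4.54 with V5 and 3.73 with FLAG, from peaks in different exons. These 2 genes were chosen after their values were seen, as examples on either side of equal values. ZNF496 (6.96 with V5 and 5.74 with FLAG) and ZNF8 (3.98 and 3.03) lay farther from equal values than ZNF236. As in ZNF236, the V5 and FLAG peaks of ZNF8, ZNF397, ZNF512B and ZNF687 did not overlap, so r partly pairs values of different places.

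Of the 65 ZNF peaks in V5 IP over SMI, 31 overlapped a peak of FLAG IP over SMI by at least 1 nt (47.7%, against 53.6% of all protein-coding peaks), and 30 of the 68 FLAG peaks overlapped a V5 peak (44.1% against 55.4%). Over the empty vector IP, 8 of 23 V5 peaks overlapped a FLAG peak (34.8% against 30.8%) and 11 of 24 FLAG peaks overlapped a V5 peak (45.8% against 51.0%). Lists of 1 antibody share their IP libraries and are not independent: 15 of 23 V5 peaks over EV also overlapped a V5 peak over SMI (65.2% against 76.4%), and 19 of 24 did for FLAG (79.2% against 90.5%).

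**Figure D5:**
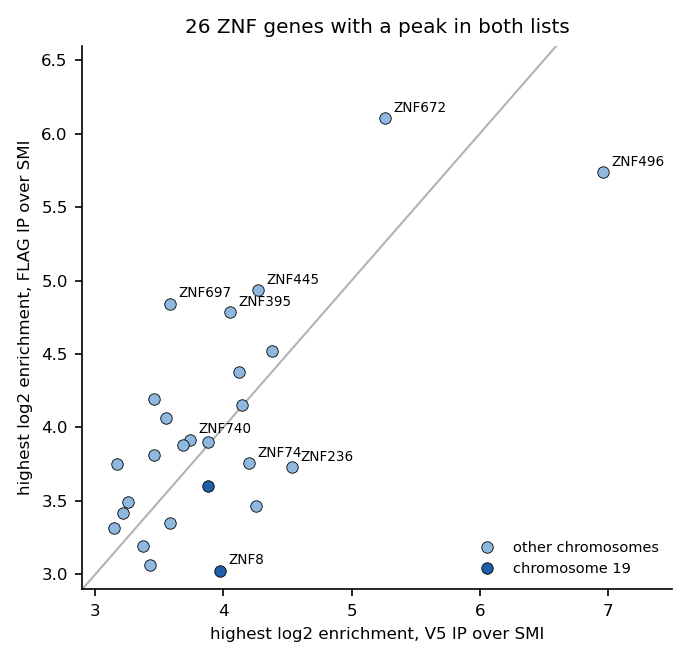
Highest log2 enrichment of a gene in V5 IP over SMI (x axis) against FLAG IP over SMI (y axis) for the 26 ZNF genes with a peak in both lists, with the line of equal values; dark points are on chromosome 19. ZNF672 and ZNF496 stand apart at the upper right, 17 genes lie above the line, and the 2 dark points, ZNF584 and ZNF8, lie below it.

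The study described a motif in bound RNAs, a GU at the end of a loop directly before a stem of 5 bases (GU-loop:5nt-stem), like the one in guide RNA. It was computed by RNAplfold as a GU whose U was paired with a probability under 0.7, followed by 5 bases each paired with over 0.5, with 50 nt of flanking sequence on either side. Of the 8 ZNF stretches bound in all 4 lists, 1 held it (12.5%, interval 2.24 to 47.1), the ZNF672 stretch printed above, against 274 of all 749 (36.6%). Among ZNF peaks over SMI it was found in 33 of 65 with V5 (50.8%, against 41.7% of all protein-coding peaks) and in 26 of 68 with FLAG (38.2% against 39.7%). Longer peaks held it more often. The median length of ZNF peaks was 83 nt (interval 78 to 90) against 75 nt of all protein-coding peaks in the V5 list. In the FLAG list it was 84 nt against 72 nt, where the interval (68 to 91) held the value of all protein-coding peaks. By region, 6 of 8 and 6 of 7 peaks in the 5′ UTR held it, 6 of 15 and 8 of 24 in the finger array, 10 of 14 and 6 of 12 in the other coding sequence, and 10 of 26 and 6 of 25 in the 3′ UTR, V5 first. These are small counts, and the intervals of the 5′ UTR shares (40.9 to 92.9 with V5 and 48.7 to 97.4 with FLAG) overlapped those of the finger array (19.8 to 64.3 and 18.0 to 53.3). Against the 3′ UTR, the 5′ UTR intervals overlapped with V5 (22.4 to 57.5 in the 3′ UTR) but not with FLAG (11.5 to 43.4). The 5′ UTR peaks were also longer, with medians of 118 and 121 nt against 91 and 89.5 nt in the array and 74 and 67 nt in the 3′ UTR, and the part of length and GC content in these shares was not tested.

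The mRNAs of factors that act with KRAB zinc finger proteins were counted as a list of 20 genes. In at least 1 list, 11 of them had a peak (55.0%, interval 34.2 to 74.2), against 18.1% of all protein-coding genes and 12.2% of the ZNF genes. Both SMI lists held 4 of the 20 (20%, interval 8.07 to 41.6), an interval that held the 9.26% of all protein-coding genes. All 4 lists held 2 (10%, interval 2.79 to 30.1, against 2.79%). The part of mRNA abundance in these shares was not tested. TRIM28, the corepressor bound by KRAB domains, had 33 peaks in V5 IP over SMI, 30 in V5 IP over EV, 22 in FLAG IP over SMI and 19 in FLAG IP over EV, with highest values of 5.15, 5.82, 5.63 and 5.38. CHD3, a NuRD helicase, was also in all 4 lists, at 4.76, 4.69, 3.94 and 3.52. CBX1, CHD4, DNMT1, KDM1A, MORC3, PPHLN1, RCOR1, SMARCAD1 and TASOR had a peak in 1 to 3 lists. No peak was found on SETDB1, the histone methyltransferase of this pathway, nor on ATF7IP, CBX3, CBX5, HDAC1, HDAC2, MORC2, MPHOSPH8 or UHRF1.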

How the data were processed

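RNA bound by tagged dSpCas9 was measured by eCLIP in the libraries described above. According to the submitters' processing notes, UMI-tools 1.0.0, cutadapt 1.14, STAR 2.4.0i and SAMtools 1.6 were used. The authors aligned reads to hg38 with an eCLIP pipeline (version 0.4.0), called peaks and merged both replicates by the Irreproducible Discovery Rate. They kept peaks with a ratio of at least 8 and also filtered on the p-value. The values the authors deposited are, per peak, a log2 ratio of IP to control reads (geometric mean of the replicates) and the −log10 of its p-value, which stops at 400. How reads were scaled and which annotation served the caller is not given in the sources used here.

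From these lists, peaks were assigned to genes by an overlap of at least 1 nt with an exon (GENCODE version 44, same strand), and regions were taken from the Ensembl canonical transcript, with the stop codon counted as coding sequence. GC content of the coding sequence leaves the stop codon out. Fingers were found by the spacing of cysteines and histidines with up to 24 nt allowed for a linker. Uniqueness was checked by searching the 30-nt words of each peak long enough to hold one in hg38 on both strands. RNAplfold of ViennaRNA 2.7.2 was run with a window of 70. Python 3.11.15, numpy 2.4.6, pandas 2.3.3, scipy 1.17.1 and pysam 0.24.0 were used. The steps were tested on simulated peaks and transcripts with known answers.

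The family, the lists and the alternatives were chosen with earlier results of these data known. Genes named were ZNF496, those with a stretch bound in all 4 lists, the 5 with the highest mean of both SMI maxima, the 3 with most merged places over SMI, the highest over SMI in each chromosome 19 cluster, those with a 5′ UTR peak in at least 2 lists and those over the empty vector IP only, with others marked as chosen later or named within a count. No test was made, since each list holds 1 value per peak. Expression, RNA editing and binding assays were not analysed here.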

Additional observations from a re-analysis of the deposited data

How the results depend on the processing

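With peaks of a log2 of at least 4, fewer ZNF genes were left: 11 in V5 IP over SMI, 5 in V5 IP over EV, 16 in FLAG IP over SMI and 5 in FLAG IP over EV. The 3′ UTR then held 50% of the peaks over SMI with either antibody. In the intersection of the lists 4 ZNF stretches were left, on ZNF445, ZNF496 and ZNF672, and none on ZNF74. An overlap of 1 nt instead of 50% gave 14 ZNF stretches, on the 4 genes of the main setting. When a gene needed at least 2 peaks in a list, chromosome 19 held 4.76% of the ZNF genes with a peak, against 27.4%. With the U paired under 0.5, the motif share of the 8 ZNF stretches was 0%. The other alternatives left each share or median that had an interval within it, and some counts changed a little. In V5 IP over EV, 16 ZNF genes became 14 with canonical exons and 13 without peaks shared with another gene. No paired analysis was possible because the lists combine both replicates, and for the same reason no replicate could be left out. Shares rest on 23 to 68 ZNF peaks per list, and on fewer when split by region, and are limited by these counts. Depth and RNA levels are unknown, so the absence of a peak does not show absence of binding.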
